A study of Mus musculus with 8 samples.

Results

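Solute carriers are membrane proteins that move sugars, amino acids, ions, vitamins, nucleotides and other small molecules across the plasma membrane or the membranes of organelles. They work without direct hydrolysis of ATP, by exchange, by facilitated diffusion or by coupling the uptake of one solute to the gradient of another, and their genes are numbered by family (Slc1, Slc2 and so on) according to sequence. The solute carrier genes were examined here in cultured neural crest cells of the sacral region of the mouse embryo, from embryos that carried the Dom mutation of Sox10 on both chromosomes (Dom/Dom) or were wild type. The members were chosen by name: every gene with a symbol of Slc followed by a digit, represented by the brightest probe set where there were several, with 7 genes (Slc40a1, Slc6a15, Slc45a2, Slc11a2, Slc25a37, Slc39a14 and Slc38a4) left out by the rule. This gave 123 of the 6855 genes tested. The deposited values cover a part of the array, and 122 of the members lie on chromosomes 1 and 10 to 16. The families below are therefore incomplete, and their counts and medians refer to the members measured. Of the 123 members, 121 encode transporters. The other 2 are Slc9a3r1, which encodes the scaffold protein NHERF1, and Slc6a19os, a noncoding transcript annotated opposite Slc6a19.

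Each genotype had 4 Affymetrix Mouse Gene 1.0 ST arrays, numbered as replicates 1 to 4. The Dom/Dom arrays came from embryos homozygous for a frameshift allele of Sox10, a transcription factor of the neural crest, and the wild-type arrays from embryos without it, both taken at embryonic day 9.5. The neural tube caudal to somite 24 was grown in medium holding 10% serum. After 24 hours the tube was lifted off, and RNA of the cells left behind, which had crawled out of it, was hybridised. The neural crest is the migratory population that gives rise to glia, pigment cells and peripheral neurons, and its sacral part contributes to the innervation of the hindgut. No label states the background strain or whether replicates of a genotype were separate embryos or litters, so the p-values measure the spread between these arrays, which may be partly technical. Sox10 itself fell, with means of 10.50 ± 0.40 in Dom/Dom arrays and 11.69 ± 0.18 in wild-type arrays (SD, n = 4 each; limma adjusted p = 0.0168), and was lower in 4 of 4 pairs. The allele does not delete the gene, so this level alone is no full check of the labels.

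Levels are log2 signals, so a difference of 1 is a change of 2-fold. Neural crest markers were present in both genotypes, 10 of 13 being measured, with mean signals per array of 11.07 to 11.29 in Dom/Dom and 11.52 to 11.82 in wild type. These ranges did not overlap, and 2 of the 10, Sox10 and Erbb3, passed the threshold, as did Tfap2a with the replicate block (limma adjusted p = 0.0418). Of the 10, 6 were lower in Dom/Dom, while Pax3, Sox9, Twist1 and Tfap2b were slightly higher, by 0.02 to 0.10. Markers of other cell types moved with genotype: the mean of 5 of 7 glial markers was 9.24 to 9.42 in Dom/Dom against 10.35 to 10.94 in wild type, and that of 2 of 6 melanoblast markers 7.99 to 8.69 in Dom/Dom against 10.06 to 10.81 in wild type. Of these, 3 glial markers (Cdh19 at -4.25, Gfra2 at -1.22 and Cnp at -1.20) and both melanoblast markers passed. Cdh19 thus gave the largest part of the difference in the glial mean. The remaining glial markers, Fabp7 at -0.08 and S100b at -0.04, hardly differed between genotypes. The list mean of 5 of 11 neuronal markers (9.86 to 10.31 in Dom/Dom, 10.25 to 10.82 in wild type) overlapped between genotypes. So did that of 5 of 7 epithelial markers, all 5 of them keratins (9.74 to 10.29 in Dom/Dom, 10.20 to 10.57 in wild type). Of the genes of both lists 0 passed, but with the replicate block 1 of each fell. These were the sensory neuron gene Pou4f1 (difference -0.64, limma adjusted p = 0.00744) and the keratin gene Krt8 (-0.50, 0.0164). Mesodermal markers, of which 0 passed without the block and 1 with it (Prrx1, difference 0.44, limma adjusted p = 0.0339), had higher means in Dom/Dom, with 4 of 7 of somite and mesoderm at 8.48 to 9.12 in Dom/Dom and 8.26 to 8.62 in wild type, and 2 of 6 of smooth muscle at 10.04 to 10.51 in Dom/Dom and 9.55 to 9.93 in wild type. The part of these differences in the values below was not tested, and in such bulk RNA fewer cells of a type and less RNA per cell cannot be told apart. None of the listed neural tube markers (Sox1, Sox2, Pax6, Olig2 and Nkx6-1) was measured, so cells of the tube could not be looked for with them.

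Of the 123 solute carrier genes, 0 passed the threshold of the comparison between genotypes (limma, adjusted p under 0.05 over all genes), where 0.481% of all genes tested did. Their differences, Dom/Dom minus wild type, ran from -0.78 to 0.23, so that 0 members differed by 1 log2 unit or more. At an unadjusted p under 0.05, 6 members were lower and 2 higher in Dom/Dom, or 4.88% and 1.63% of the members, where 3.89% and 2.22% of all genes tested were. For 112 of the 123 members the 95% confidence interval of the difference lay within 0.5 log2 units of 0, with a median half-width of 0.22. The spread between arrays of a genotype was similar to that of other genes, with a median pooled SD of 0.135 for the members and 0.145 for all genes tested.

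Same-numbered arrays of the genotypes deviated together, and with the replicate number as a block 1 member fell, Slc24a4, which is 0.813% of the members, where 1.05% of all genes tested fell and 1.5% changed in either direction. At an unadjusted p under 0.05 with the block, 14 members were lower and 2 higher (11.4% and 1.63%), where 7.48% and 6.37% of all genes were. Leaving out pair 1, 2, 3 or 4 from this fit, as chosen after seeing the data, gave 4 members past the threshold without pair 1 (3.25%, beside 6.93% of all genes), 3 without pair 2 (2.44%, beside 1.63%), and 0 without pair 3 or pair 4 (beside 0.219% and 0.19%). Slc24a4 was among those without pair 1 and those without pair 2. With array weights and no block, 2 members passed, Slc24a4 and Slc35f1 (1.63%, beside 2.77% of all genes). In 4 of 4 pairs of same-numbered arrays 19 members were lower and 5 higher in Dom/Dom (15.4% and 4.07%), against a background of 10.7% and 10.4%. The groups of arrays did not overlap for 2 members that were lower, Slc24a4 and Slc19a3, where 2.6% of all genes had such a gap downwards, and for 1 that was higher, Slc5a8, where 1.18% had one upwards.

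The members lay slightly to the negative side. Of the 123, 81 (65.9%) had a difference below 0, beside 50.4% of all genes tested, and their median was -0.02, beside -0.001. With each array centred on its own median, the members' median was 0.02 and that of all genes 0.03. By replicate number, the members' medians were -0.04, 0.03, -0.07 and -0.03 in pairs 1 to 4, beside -0.01, 0.02, -0.01 and 0.0007 for all genes. Pair 2 thus ran opposite to the other pairs. Of the members, 87 (70.7%) differed by less than 0.1, as did 70.5% of all genes.

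**Figure D1:**
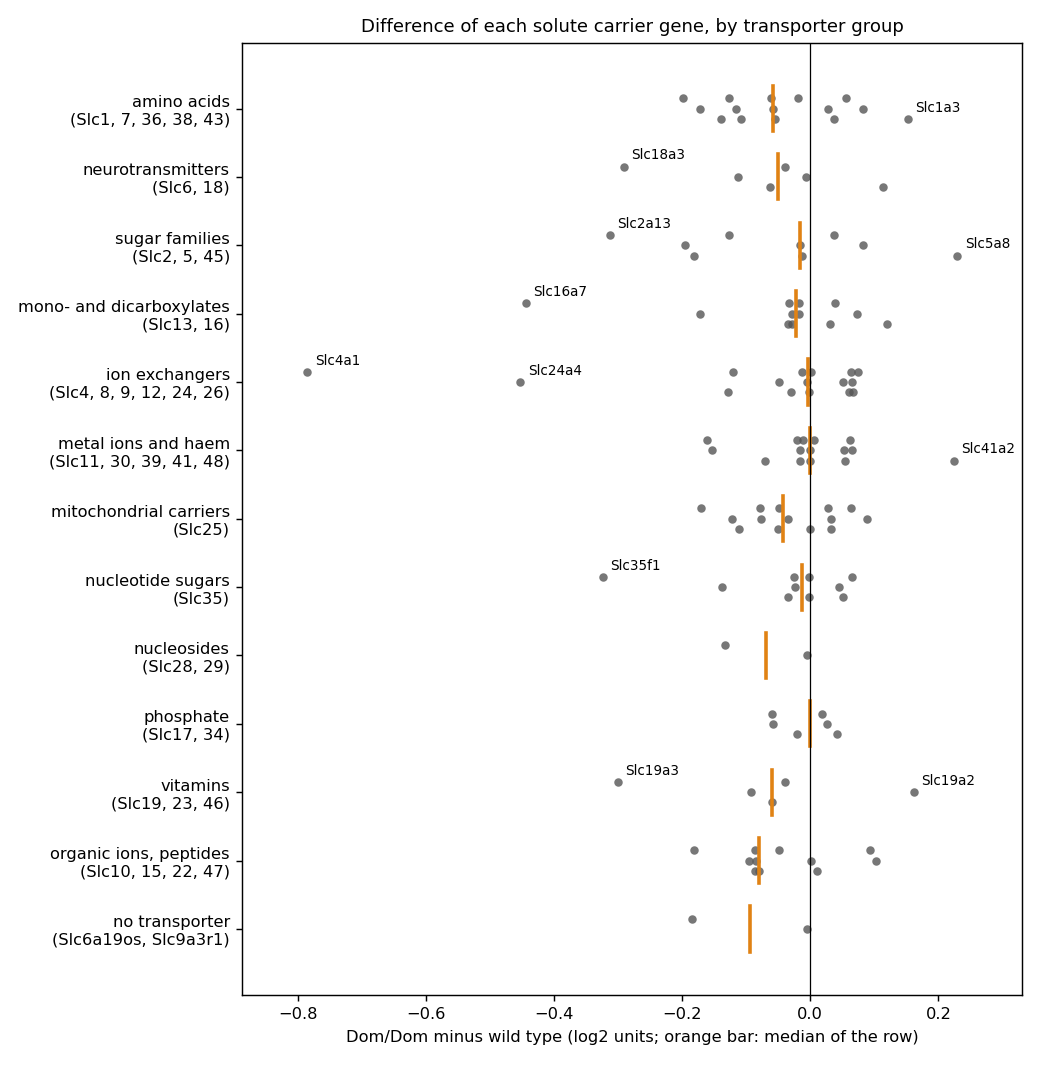
Difference of each of the 123 solute carrier genes in log2 units (x axis, Dom/Dom minus wild type, mean of 4 arrays each), in rows by transporter group; each point is a gene and the orange bar is the median of the row. Most points lie within 0.1 of 0, Slc4a1 lies farthest out at -0.78, and Slc5a8 and Slc41a2 are the most positive.

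Slc24a4 (probe set 10397835, chromosome 12) encodes a potassium-dependent exchanger that moves calcium out of the cell against sodium. Its signal was 7.96, 7.74, 7.96 and 7.66 in Dom/Dom replicates 1 to 4, against 8.32, 8.13, 8.41 and 8.28 in wild-type replicates 1 to 4. Every Dom/Dom array was below every wild-type array. The gene was rather dim: its mean signal of 8.06 lay between the lower quartile, 7.83, and the median, 9.28, of all genes tested. Its signal over background is unknown. The means were 7.83 ± 0.15 in Dom/Dom arrays and 8.28 ± 0.12 in wild-type arrays (SD, n = 4), which puts Dom/Dom at -0.45 (standard error 0.10), or 1.37-fold lower (limma adjusted p = 0.0998; 0.0221 with the replicate block). The pairs gave -0.36, -0.39, -0.45 and -0.61, and it was the single member whose 4 pairs all differed by at least 0.25. With array weights in place of the block it also passed (limma adjusted p = 0.0179). With the block it passed without pair 1 or pair 2 and did not without pair 3 or pair 4 (limma adjusted p = 0.0107 to 0.152), and with neither block nor weights it did not pass with any single array left out (0.0697 to 0.372).

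The upstream sequence of the 3 members whose groups did not overlap is given for reference, from RefSeq promoters on GRCm38.p6, from 250 bases before to 50 after an annotated start, 5′ to 3′ on the strand of the gene, with the start base in capitals. They were read for 3 forms of the core letters bound by SOX proteins, AACAAT and also ACAAAG and also ACAATG, on both strands (AACAAT and ACAATG overlap where both occur). Other forms, such as the TCAAAG present in the Slc19a3 and the Slc5a8 windows, were not searched for. Slc24a4 lies at chr12:102128477-102128776 on the plus strand, Slc19a3 at chr1:83038399-83038698 on the minus strand (1 of its annotated starts) and Slc5a8 at chr10:88885742-88886041 on the plus strand.
Slc24a4: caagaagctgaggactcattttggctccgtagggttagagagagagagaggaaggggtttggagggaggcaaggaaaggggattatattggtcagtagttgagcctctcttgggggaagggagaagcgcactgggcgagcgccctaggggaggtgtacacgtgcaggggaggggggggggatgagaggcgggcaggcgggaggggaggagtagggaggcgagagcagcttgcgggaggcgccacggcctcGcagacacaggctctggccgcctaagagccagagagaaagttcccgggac
Slc19a3: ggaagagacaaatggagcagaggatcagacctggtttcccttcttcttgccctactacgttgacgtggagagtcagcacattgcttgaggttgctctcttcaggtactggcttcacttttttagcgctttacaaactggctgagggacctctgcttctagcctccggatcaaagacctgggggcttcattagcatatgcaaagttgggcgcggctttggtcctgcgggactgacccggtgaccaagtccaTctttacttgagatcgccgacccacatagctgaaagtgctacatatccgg
Slc5a8: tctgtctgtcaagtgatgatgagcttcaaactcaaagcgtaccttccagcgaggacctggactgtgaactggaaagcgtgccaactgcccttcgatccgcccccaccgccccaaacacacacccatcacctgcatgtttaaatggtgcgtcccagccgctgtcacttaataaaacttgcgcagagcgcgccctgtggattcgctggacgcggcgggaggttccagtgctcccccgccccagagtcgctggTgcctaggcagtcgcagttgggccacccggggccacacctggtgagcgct
None of the 3 windows held any of the 3 motifs, which says only that these letters are not in these windows. Of 124 promoters listed for 101 of the members, 16.9% held at least 1 of them, as did 26.6% of the 6479 promoters of tested genes and 33.2% of all 32851 promoters in the table. Median GC content was the same in the promoters of the members and of the tested genes.

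Ion exchangers of the families Slc4, Slc8, Slc9, Slc12, Slc24 and Slc26, which move bicarbonate, protons, sodium, chloride, calcium or sulfate, had 16 members. Their median difference was -0.003, with 9 below 0 and 7 above it, and 12 differed by less than 0.1. Beside Slc24a4 the largest difference of the group, and of all members, was that of Slc4a1 (probe set 10391649, chromosome 11), the chloride and bicarbonate exchanger of the red blood cell membrane. Slc4a1 stood at 8.67, 9.42, 9.62 and 9.69 in Dom/Dom replicates 1 to 4, against 9.37, 9.30, 10.93 and 10.94 in wild-type replicates 1 to 4. Wild-type replicates 3 and 4 were far above the other 6 arrays, and the remaining wild-type arrays lay within the Dom/Dom range. The difference was -0.78 ± 0.40 (standard error) and did not pass (limma adjusted p = 0.972, and 0.183 with the replicate block). Its pair differences were -0.70, 0.12, -1.32 and -1.24. The embryonic globin gene Hba-x, of red blood cells, was at 10.74, 12.06, 12.77 and 12.51 in Dom/Dom replicates 1 to 4, against 12.23, 11.67, 13.52 and 13.44 in wild-type replicates 1 to 4. It too was lowest in Dom/Dom replicate 1 and highest in wild-type replicates 3 and 4, and its pair 2 also ran opposite to the other pairs. Of 7 blood markers 2 were measured, and the other, the leukocyte gene Ptprc, lay between 6.95 and 7.10 on all arrays. The part of blood cells in the values of Slc4a1 was not tested.

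The potassium and chloride cotransporter gene Slc12a7, with the highest signal of the ion exchangers, stood at 11.09 ± 0.23 in Dom/Dom arrays and 11.12 ± 0.19 in wild-type arrays (SD, n = 4). Slc9a2, a sodium and proton exchanger gene, had the most positive difference of the group, 0.08 (95% confidence interval -0.11 to 0.26, limma adjusted p = 1.00).

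The transporters of monocarboxylates and dicarboxylates (Slc13 and Slc16), among them the carriers of lactate and pyruvate, had 12 members with a median difference of -0.02. Slc16a7 (probe set 10372988, chromosome 10) encodes MCT2, a lactate and pyruvate transporter of high affinity. It was at 8.62, 9.28, 8.93 and 9.42 in Dom/Dom replicates 1 to 4, against 9.30, 9.37, 9.56 and 9.80 in wild-type replicates 1 to 4. The groups overlapped in Dom/Dom replicate 4, although each Dom/Dom array was below the wild-type array of its number. The difference of -0.44 (standard error 0.17, 1.36-fold lower) did not pass (limma adjusted p = 0.619, and 0.111 with the replicate block). MCT2 reaches the membrane with a partner glycoprotein, for which embigin is known. Its gene Emb was likewise lower in 4 of 4 pairs, by -0.43, -0.14, -0.38 and -0.33, with a mean of 11.19 ± 0.32 in Dom/Dom arrays and 11.51 ± 0.29 in wild-type arrays (SD, n = 4). Emb did not pass in either fit (limma adjusted p = 1.00 without and 0.0697 with the replicate block). Bsg, which encodes basigin, the partner of other monocarboxylate transporters, had a difference of -0.05 (95% confidence interval -0.22 to 0.12). On the positive side Slc16a9 was at 8.67 ± 0.08 in Dom/Dom arrays and 8.55 ± 0.10 in wild-type arrays (SD, n = 4), higher in 4 of 4 pairs by 0.01 to 0.18. Slc16a13, the brightest member of the group, was at 10.23 ± 0.36 in Dom/Dom arrays and 10.26 ± 0.27 in wild-type arrays (SD, n = 4).

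**Figure D2:**
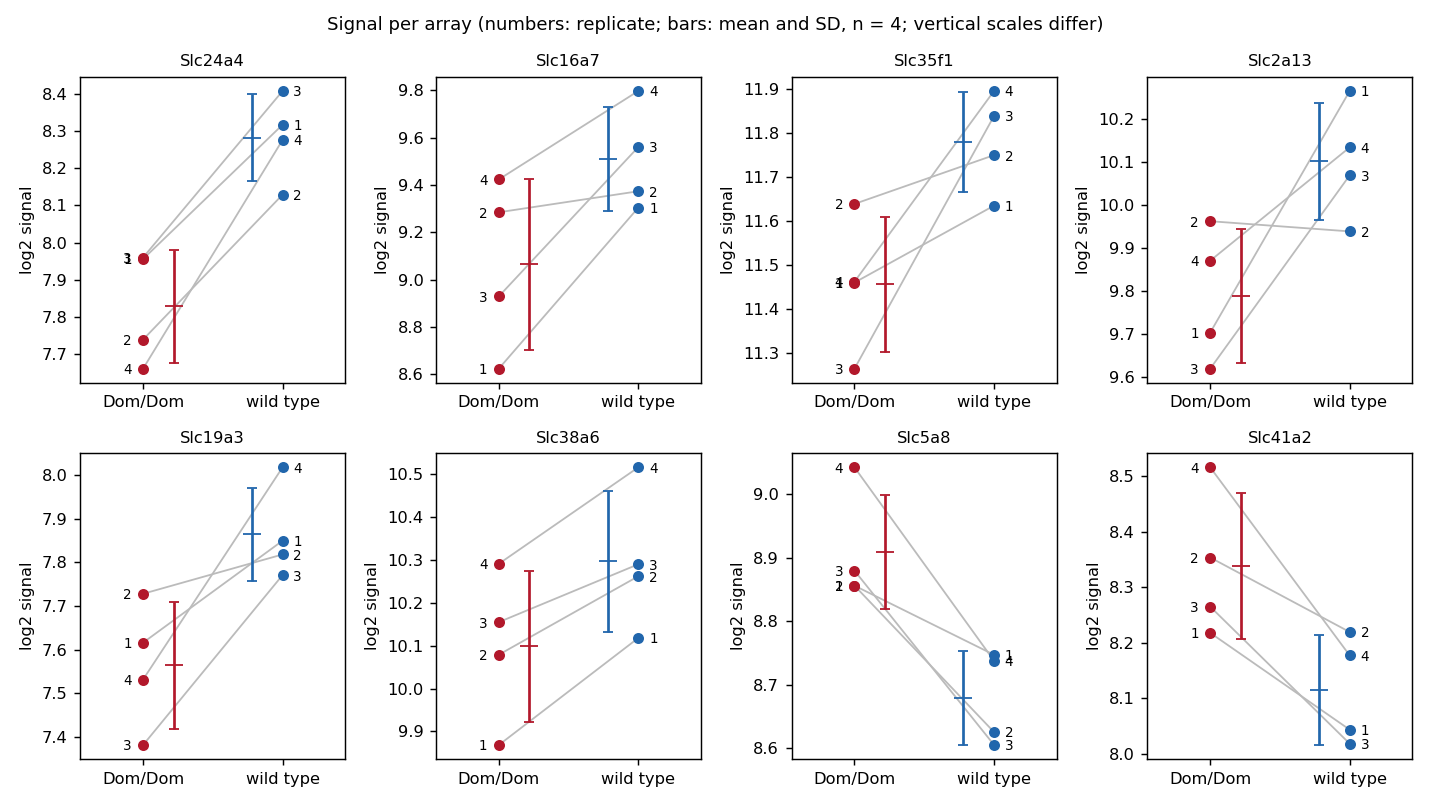
Log2 signal on each array (y axis, own scale per panel) of 8 solute carrier genes in Dom/Dom (red) and wild type (blue); numbers give the replicate, grey lines join arrays of the same number, and bars are the mean and SD of 4 arrays. All lines of Slc24a4 are lower at the Dom/Dom end, with no overlap of the groups, Slc2a13 has 1 line running the other way, and those of Slc5a8 and Slc41a2 are all higher in Dom/Dom.

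Families named for sugars (Slc2, Slc5 and Slc45) had 9 members, 6 below 0 and 3 above, with a median of -0.02. All 3 measured members of the facilitative family Slc2, Slc2a4, Slc2a12 and Slc2a13, were below 0. Slc2a13 (probe set 10431711, chromosome 15), which encodes a proton-coupled transporter of myo-inositol, was at 9.70, 9.96, 9.62 and 9.87 in Dom/Dom replicates 1 to 4, against 10.26, 9.94, 10.07 and 10.13 in wild-type replicates 1 to 4. Only wild-type replicate 2 lay within the Dom/Dom range. The difference was -0.31 (standard error 0.10, limma adjusted p = 0.407, and 0.212 with the replicate block). The glucose transporter gene Slc2a12 differed by -0.18, with pair 2 at 0.20 and the others between -0.37 and -0.23. Slc45a3 differed by -0.20 (9.18 ± 0.15 in Dom/Dom arrays and 9.37 ± 0.04 in wild-type arrays, SD, n = 4; limma adjusted p = 0.791), and Slc45a4 by -0.13; each was lower in 4 of 4 pairs.

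Slc5a8 (probe set 10365640, chromosome 10) belongs by sequence to the sodium-coupled glucose transporter family, but the protein carries monocarboxylates such as lactate, butyrate and nicotinate. It had the most positive difference of all members. Its signal was 8.86, 8.86, 8.88 and 9.04 in Dom/Dom replicates 1 to 4, against 8.75, 8.63, 8.61 and 8.74 in wild-type replicates 1 to 4. All Dom/Dom arrays were above all wild-type arrays. The difference was 0.23 (standard error 0.08), or 1.17-fold (limma adjusted p = 0.461, and 0.113 with the replicate block). Slc5a10, which encodes a transporter of fructose and mannose, differed by 0.08 with pairs of both signs.

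The vitamin transporter families Slc19, Slc23 and Slc46 had 5 members, of which the genes of both thiamine transporters stood at opposite ends. Slc19a3 (probe set 10356145, chromosome 1) was at 7.62, 7.73, 7.38 and 7.53 in Dom/Dom replicates 1 to 4, against 7.85, 7.82, 7.77 and 8.02 in wild-type replicates 1 to 4. The groups did not overlap, with a gap of less than 0.1 between the nearest arrays. The gene was dim: its mean signal of 7.71 lay below the lower quartile of all genes tested, 7.83, and its signal over background is unknown. The difference was -0.30 (standard error 0.09, limma adjusted p = 0.377, and 0.128 with the replicate block). Slc19a2 was at 11.16, 11.01, 10.63 and 10.85 in Dom/Dom, against 11.22, 10.83, 10.44 and 10.51 in wild type. It varied more between replicates than between genotypes, and its difference of 0.16 had a 95% confidence interval of -0.22 to 0.55. Slc19a1, the reduced folate carrier gene, differed by -0.04 (10.82 ± 0.09 in Dom/Dom arrays and 10.86 ± 0.13 in wild-type arrays, SD, n = 4).

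Amino acid transporters (Slc1, Slc7, Slc36, Slc38 and Slc43) had 15 members, 10 below 0 and 5 above, with a median of -0.06. Slc38a6 (chromosome 12) had the largest difference, -0.20. It stood at 9.87, 10.08, 10.15 and 10.29 in Dom/Dom replicates 1 to 4, against 10.12, 10.26, 10.29 and 10.52 in wild-type replicates 1 to 4. The groups overlapped, but the pairs differed by similar amounts, -0.25, -0.18, -0.13 and -0.23 (limma adjusted p = 1.00; 0.124 with the replicate block). The glutamine transporter genes Slc38a2 and Slc38a1 gave some of the brightest and steadiest signals. Slc38a2 was at 13.82 ± 0.02 in Dom/Dom arrays and 13.78 ± 0.04 in wild-type arrays (SD, n = 4), a difference of 0.04 with a 95% confidence interval of -0.11 to 0.19. Slc38a1 was at 12.99 ± 0.08 in Dom/Dom arrays and 12.94 ± 0.03 in wild-type arrays (SD, n = 4). Slc1a3, the glial glutamate transporter known as GLAST, was at 9.82, 9.53, 9.36 and 9.54 in Dom/Dom replicates 1 to 4, against 9.36, 9.49, 9.36 and 9.44 in wild-type replicates 1 to 4. Its difference of 0.15 came mainly from Dom/Dom replicate 1, with pairs of 0.46, 0.04, 0.004 and 0.11 (limma adjusted p = 1.00). Slc7a7, a light chain of cationic amino acid exchangers, differed by 0.08 (8.52 ± 0.24 in Dom/Dom arrays and 8.43 ± 0.19 in wild-type arrays, SD, n = 4).

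Transporters of neurotransmitters and related amino acids (Slc6 and Slc18) had 6 members. Slc18a3 (probe set 10418835, chromosome 14) encodes the vesicular transporter that loads acetylcholine into synaptic vesicles of cholinergic neurons. It was at 10.42, 8.95, 8.60 and 8.45 in Dom/Dom replicates 1 to 4, against 8.95, 9.55, 9.52 and 9.56 in wild-type replicates 1 to 4. Dom/Dom replicate 1 was above all other arrays, while in pairs 2 to 4 Dom/Dom was lower by -0.60, -0.92 and -1.11. Pair 1 differed by 1.47, and the mean difference was -0.29 ± 0.37 (standard error, limma adjusted p = 1.00; 0.800 with the replicate block). With the block and without pair 1, which leaves 3 pairs, Slc18a3 was at -0.88 (limma adjusted p = 0.00708), a fit made after these values were seen. The gene lies within that of choline acetyltransferase, Chat, which makes the transmitter. Chat, chosen after its values were seen, was at 8.37, 7.76, 7.82 and 7.75 in Dom/Dom, against 7.93, 7.93, 8.18 and 8.07 in wild type, likewise highest in Dom/Dom replicate 1. The mean of the 5 neuronal genes measured, of 11 listed, was 10.31, 9.86, 10.21 and 10.26 in Dom/Dom replicates 1 to 4, against 10.25, 10.32, 10.81 and 10.82 in wild-type replicates 1 to 4. Pair 1 was the one pair in which it was higher in Dom/Dom. The part of the number of neurons in these values was not tested. Slc18b1, of the same family, had a difference of -0.01, and the neutral amino acid transporter gene Slc6a19 one of 0.11 (95% confidence interval -0.14 to 0.37).

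**Figure D3:**
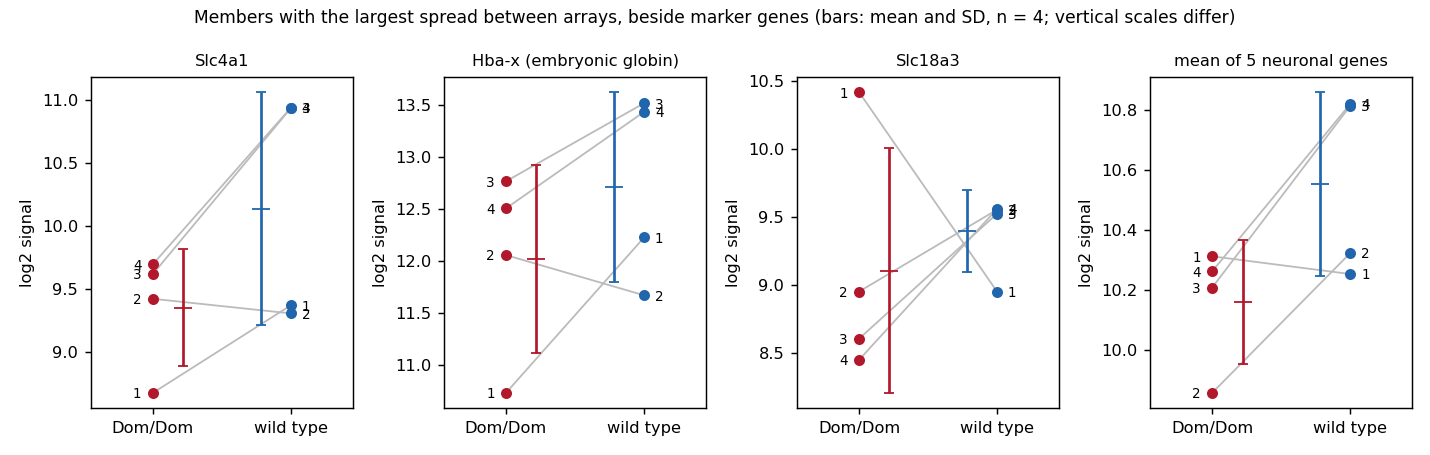
Log2 signal on each array (y axis, own scale per panel) of the 2 solute carrier genes with the largest within-genotype spread, Slc4a1 and Slc18a3, beside the globin gene Hba-x and the mean of 5 neuronal genes, in Dom/Dom (red) and wild type (blue); numbers give the replicate and bars the mean and SD of 4 arrays. Slc4a1 and Hba-x are both lowest in Dom/Dom replicate 1 and highest in wild-type replicates 3 and 4, and Slc18a3 is highest in Dom/Dom replicate 1.

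Carriers of metal ions and haem (Slc11, Slc30, Slc39, Slc41 and Slc48) had 15 members with a median of -0.001, and 12 differed by less than 0.1. Slc41a2 (probe set 10371321, chromosome 10), a magnesium transporter gene, was at 8.22, 8.35, 8.26 and 8.52 in Dom/Dom replicates 1 to 4, against 8.04, 8.22, 8.02 and 8.18 in wild-type replicates 1 to 4. It was higher in 4 of 4 pairs, and the groups overlapped only where wild-type replicate 2 met Dom/Dom replicate 1. The difference was 0.22 (standard error 0.09, limma adjusted p = 0.652; 0.124 with the replicate block). The zinc importer gene Slc39a10, the brightest of the group, was at 12.48 ± 0.14 in Dom/Dom arrays and 12.48 ± 0.11 in wild-type arrays (SD, n = 4).

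Mitochondrial carriers (Slc25), which pass nucleotides, phosphate and metabolites through the inner mitochondrial membrane, had 14 members and, among groups of more than 2 genes, the highest median signal, 10.58. Of these, 11 differed by less than 0.1. The phosphate carrier gene Slc25a3 was at 13.67 ± 0.12 in Dom/Dom arrays and 13.64 ± 0.08 in wild-type arrays (SD, n = 4), and Slc25a11, the carrier of oxoglutarate and malate, at 12.62 ± 0.07 in Dom/Dom arrays and 12.69 ± 0.10 in wild-type arrays. Slc25a39, a carrier linked to mitochondrial glutathione, differed by -0.12 and was lower in 4 of 4 pairs by -0.23 to -0.02. Slc25a35 had the largest difference, -0.17, or -0.31 without Dom/Dom replicate 2, and Slc25a21, the oxodicarboxylate carrier, the most positive, 0.09. The ADP and ATP carrier gene Slc25a5 was the 1 member annotated on chromosome X, all others being on chromosomes 1 and 10 to 16. Its signal of 13.08 ± 0.16 in Dom/Dom arrays and 13.08 ± 0.15 in wild-type arrays (SD, n = 4) is uncertain as a measure of this gene, since near-identical processed copies exist elsewhere in the genome and could share its probes.

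Slc35f1 (probe set 10363146, chromosome 10) had the most negative difference of the 10 members of Slc35, the family of nucleotide sugar transporters of the Golgi apparatus and endoplasmic reticulum. It was at 11.46, 11.64, 11.26 and 11.46 in Dom/Dom replicates 1 to 4, against 11.63, 11.75, 11.84 and 11.90 in wild-type replicates 1 to 4. The groups met where Dom/Dom replicate 2 reached wild-type replicate 1. The difference was -0.32 (standard error 0.10, 1.25-fold lower, limma adjusted p = 0.327; 0.148 with the replicate block), and with array weights Slc35f1 passed at -0.43 (limma adjusted p = 0.0247). The other 9 members lay between -0.14 and 0.06, and Slc35b1, which exchanges ATP and ADP at the endoplasmic reticulum, was at 12.35 ± 0.11 in Dom/Dom arrays and 12.29 ± 0.13 in wild-type arrays (SD, n = 4).

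The lysosomal nucleoside transporter gene Slc29a3 differed by -0.13 and was lower in 4 of 4 pairs by -0.20 to -0.05. Phosphate transporters and their relatives (Slc17 and Slc34) had 6 members between -0.06 and 0.04, with Slc17a1 at -0.06 and the renal phosphate transporter gene Slc34a1 at 0.02. Transporters of organic ions, bile acids and peptides (Slc10, Slc15, Slc22 and Slc47) had 11 members with a median of -0.08. Slc22a17, a receptor for lipocalin 2, was at 10.70, 10.63, 10.13 and 10.10 in Dom/Dom replicates 1 to 4, against 10.69, 10.66, 10.53 and 10.40 in wild-type replicates 1 to 4. Replicates 1 and 2 of both genotypes were level, and the difference of -0.18 came from replicates 3 and 4 (limma adjusted p = 1.00). Slc22a23 was at 12.52, 12.60, 11.71 and 11.87 in Dom/Dom, against 12.54, 12.48, 11.63 and 11.69 in wild type. It separated replicates 1 and 2 from replicates 3 and 4 by more than it separated the genotypes, whose difference was 0.09. The carnitine transporter gene Slc22a21 differed by 0.10 (8.41 ± 0.16 in Dom/Dom arrays and 8.31 ± 0.14 in wild-type arrays, SD, n = 4). The scaffold gene Slc9a3r1, which is no transporter, was at 10.80 ± 0.07 in Dom/Dom arrays and 10.98 ± 0.12 in wild-type arrays (SD, n = 4; difference -0.18, limma adjusted p = 0.824).

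**Figure D4:**
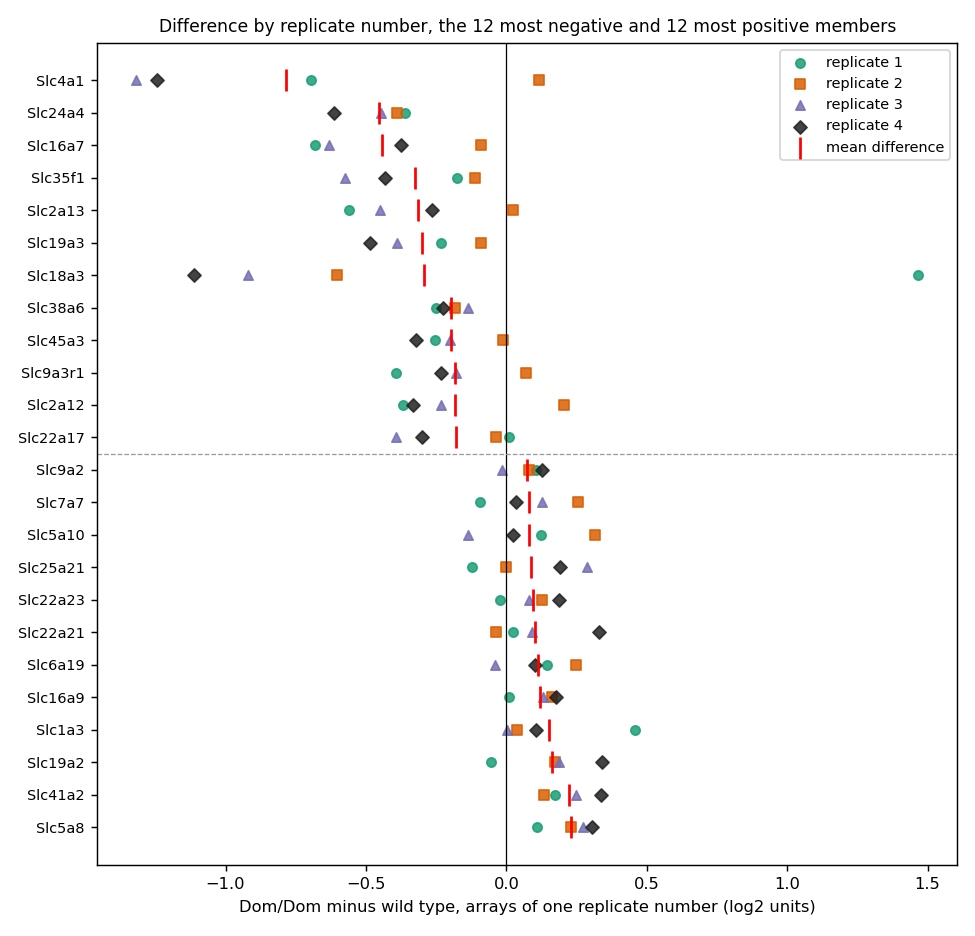
Difference between the Dom/Dom and the wild-type array of each replicate number (x axis, log2 units) for the 12 solute carrier genes with the most negative and the 12 with the most positive mean difference; markers give the replicate number and the red bar the mean of the 4. Replicate 2 lies closest to 0 or on the opposite side for several of the negative genes, and replicate 1 of Slc18a3 lies far to the right at 1.47.

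The mean signals of the members ran from 5.74 (Slc22a22) to 13.8 (Slc38a2), with a median of 8.59, beside 9.28 for all genes tested. Probe sets differ in how brightly they bind, and no detection calls came with the values, so no order of abundance between genes was drawn from these signals. The 10 brightest were Slc38a2, Slc25a3, Slc25a5, Slc38a1, Slc25a11, Slc39a10, Slc35b1, Slc22a23, Slc25a39 and Slc35f1. Of these, Slc35f1 alone differed by more than 0.15 between genotypes. The median signal was lowest, 7.24, in the phosphate group, whose 6 members lay between 6.89 and 8.28.

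**Figure D5:**
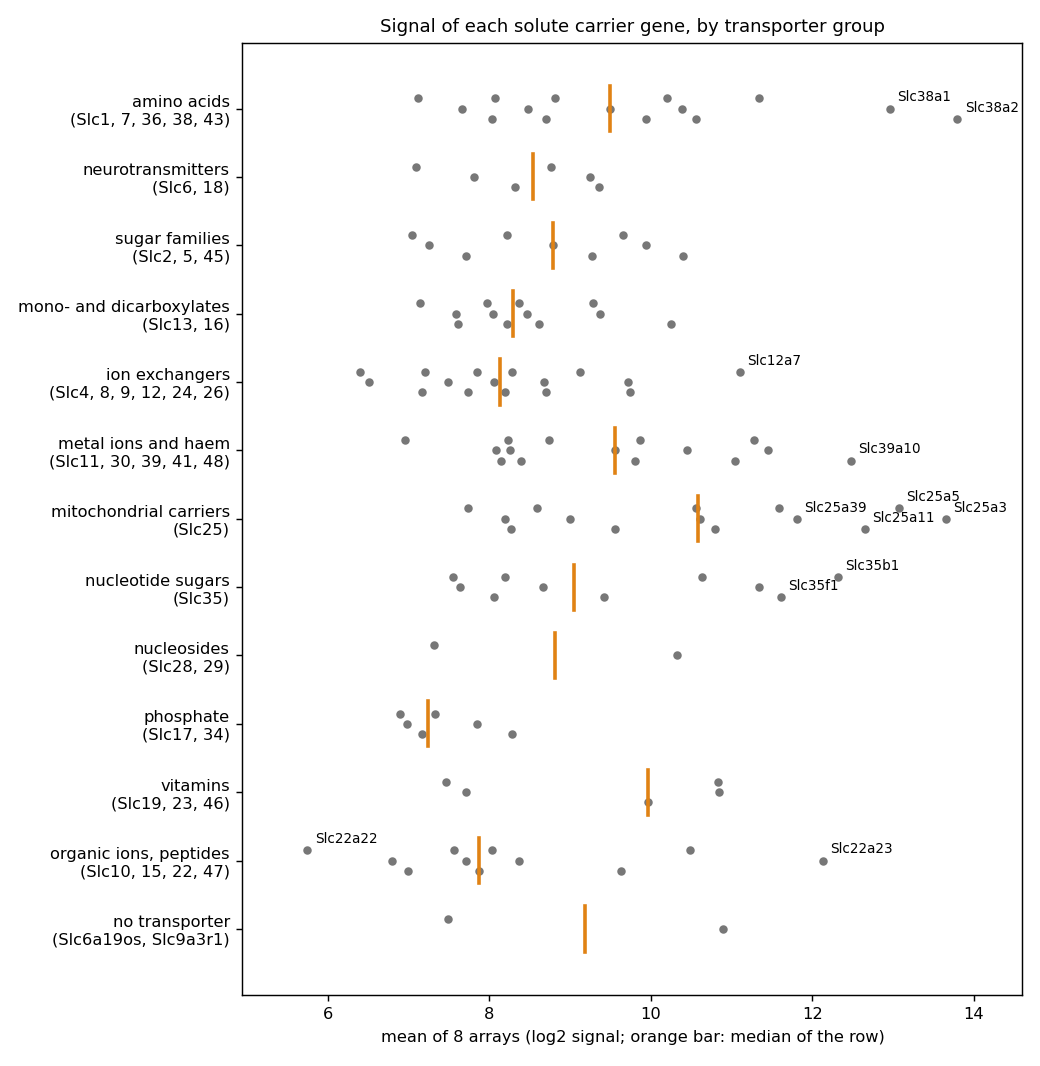
Mean log2 signal over 8 arrays (x axis) of each of the 123 solute carrier genes, in rows by transporter group; each point is a gene and the orange bar the median of the row. The mitochondrial carriers have the highest median of the groups with more than 2 genes, 10.58, and the phosphate group the lowest, 7.24.

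By the order of protein-coding genes in RefSeq, 15 runs of 2 to 4 members, 35 genes in all, lie side by side or with 1 gene between them. The longest holds Slc17a1, Slc17a2, Slc17a3 and Slc17a4 on chromosome 13, with differences of -0.06 to 0.04 and mean signals of 6.89 to 7.32. Slc38a1 and Slc38a2 on chromosome 15 were both bright. Slc4a1 and Slc25a39 form a run on chromosome 11, with differences of -0.78 and -0.12. Members of such runs can be close copies of each other, as Slc5a4a and Slc5a4b or Slc22a4, Slc22a5 and Slc22a21 are, and their probes may share signal. Of the 5 members with 2 probe sets, Slc19a1 was the 1 whose probe sets differed in sign, at -0.04 and 0.03.

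Beside the solute carriers, 46 genes of other transport proteins or their partners were examined in 6 lists. Of these, 0 passed without the block, where 0.481% of all genes tested did. With the replicate block, which called 0.452% of all genes higher in Dom/Dom, 1 rose, Atp1b1, which encodes a beta subunit of the sodium pump that maintains the gradient many solute carriers use. Its signal was 11.45, 11.37, 11.49 and 11.67 in Dom/Dom replicates 1 to 4, against 11.06, 10.98, 10.93 and 11.15 in wild-type replicates 1 to 4. All Dom/Dom arrays were above all wild-type arrays (difference 0.46, standard error 0.09, limma adjusted p = 0.0535; 0.0164 with the replicate block). The gene of another beta subunit, Atp1b2, went the other way, at -0.33 and lower in 4 of 4 pairs (limma adjusted p = 0.311, and 0.188 with the replicate block). Atp2b4, also among the ATPase pumps, had the largest difference of the 46 genes, -0.59 (limma adjusted p = 0.177, and 0.119 with the block). The related gene Atp2b1 went the other way, at 0.37 and higher in 4 of 4 pairs (limma adjusted p = 0.195, and 0.0683 with the block). Its mean signal was 13.18, beside 9.19 for Atp2b4. The lists were 5 Slco organic anion transporters, 16 ABC transporters, 15 genes of ATPase pumps, 4 aquaporins and 2 partner proteins. The last list held 4 further genes of mitochondrial transport, Mcu, Micu2, Mpc1 and Sfxn1. Their median differences lay between -0.18 and 0.01.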

How the data were processed

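The deposited values are log2 signals per probe set and array, and the authors normalised them with RMA, per the submitters' processing notes, which also name Partek. Versions and settings are not given in the sources used here. Labelling started from 250 ng of RNA, per the labels' protocols. The number of arrays limits the precision, and without detection calls the signal over background is unknown. Array medians were 8.60 to 8.78, and no array was identical to another.

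The table held 16381 probe sets, a part of the array: 7416 had 1 gene symbol, 509 several and 8456 none. Probe sets with 1 symbol were reduced to the brightest of each gene, 6855 genes, with symbols updated by gene identifier through RefSeq (GRCm38.p6), which matched 6829. The genotype term was fitted by lmFit and eBayes of limma 3.58.1 (R 4.3.3; two-sided, no other term), with Benjamini-Hochberg adjustment over all genes and a threshold of 0.05. The fit was also run on simulated data with independent arrays and planted changes of 1 log2 unit or more. That run does not bear on smaller differences or on arrays that deviate together.

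Replicate numbers are shared between genotypes. Deviations from the genotype means correlated at 0.47, 0.58, 0.61 and 0.67 for arrays of the same number, and the numbers are therefore treated as pairs. This rests on the data, as no label states it, and arrays of different number within replicates 1 and 2 or within 3 and 4 also correlated above 0.1. The fit with the replicate block was an alternative.

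Named genes were those past the threshold in either fit, the 12 most negative and 12 most positive members, the 10 brightest, the brightest and the most different of each transporter group, those with 4 pairs of 1 sign and at least 0.25 each, and those with probe sets of opposite sign. Others were chosen after their values were seen, among them the promoters of members whose groups do not overlap. The members and lists were chosen with earlier results of these data known.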

Additional observations from a re-analysis of the deposited data

Results flagged for a closer look

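Each named member was searched in each genotype for 1 array far from the other 3. The search covered 82 genotype groups and found 3 such arrays, while about 4.1 would be found by chance. Slc18a3 was low in wild-type replicate 1, at 8.95, with the rest of that genotype at 9.52 to 9.56. Slc25a35 was high in Dom/Dom replicate 2, at 8.53, with the rest of that genotype at 7.95 to 7.97. Slc5a8 was high in Dom/Dom replicate 4, at 9.04 against 8.86 to 8.88.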

How the results depend on the processing

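The count of solute carrier genes past the threshold was 0 without the replicate block, 1 with it (Slc24a4) and 2 with array weights (Slc24a4 and Slc35f1, limma adjusted p = 0.0179 and 0.0247), and 0 in each of the 8 fits that left out 1 array. The block changed no other member's call. With the block and 1 pair left out, an alternative chosen after seeing the data, it was 0 to 4: Slc16a14, Slc18a3, Slc24a4 and Slc5a8 (4) without pair 1, Slc16a7, Slc24a4 and Slc4a1 (3) without pair 2, and none without pair 3 or pair 4. The count over all genes was 33, with 103 under the block, 190 with array weights, 4 when all probe sets were tested, 10 to 51 with 1 array left out, and 475, 112, 15 and 13 with the block and pair 1, 2, 3 or 4 left out. Of the single arrays, leaving out replicate 3 or 4 of either genotype gave 10 to 12 and leaving out wild-type replicate 2 gave 51. The median difference over the members, -0.02, became -0.0757 after quantile normalisation (-0.04 for all genes) and -0.05 to 0.003 with 1 array left out. Leaving out 1 array reversed the sign of Slc22a23 (-0.0574 to 0.249), Slc25a21 (-0.0526 to 0.261), Slc7a7 (-0.0313 to 0.144) and Slc5a10 (-0.00626 to 0.163), none of which passed the threshold. Of the comparisons for single members, 518 kept their direction and side of the threshold, 8 reversed and 9 passed it newly. The cause was not tested. A filter on dim probe sets left 90 members.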
